A study of Mus musculus with 6 samples.

Results

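The Myc and Max network is a family of transcription factors of the basic helix-loop-helix leucine zipper class. The 10 members described here were taken by name, as Myc, Mycl, Max, Mxd1, Mxd4, Mxi1, Mnt, Mga, Mlx and Mlxip, and all 10 were found among the 22377 genes of the count table. RNA came from the macrophages of subcutaneous tumors grown from LLC, the mouse Lewis lung carcinoma line, and was sequenced in 6 libraries, each labelled as a separate biological sample. The labels call 3 of them wt and 3 knockdown. According to the methods of the study, the cells were macrophages gated as CD45+ CD11b+ F4/80+ from tumors grown in Npm1+/+ or Npm1+/- hosts, so the wt label is read as Npm1+/+ and the knockdown label as Npm1+/-. In the labels, however, the material is tumor tissue and no genotype is stated.

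Both groups carried the same implanted tumor cells and received no agent that the sources name. The Npm1+/- allele is carried by the whole host, so other host cells differed in genotype along with the macrophages, while the LLC cells did not. Tumor-bearing mice of the study were young adults of both sexes, and neither age nor sex is given for a single library. The strain of the Npm1+/- mice is not given in the sources used here. The replicates are separate samples by their labels, but a description of these data in the study names fewer individual mice than there are libraries in a group. Whether each library is a separate animal is therefore not settled, and the p-values measure only the spread between libraries, which may in part be technical. In bulk samples, fewer cells of a type and less RNA per cell cannot be told apart.

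Max is the obligate partner at the centre of the network. Myc and Mycl bind Max and activate transcription at E-box sequences, whose best-known form is CACGTG, and Myc drives growth, ribosome production and proliferation in many cell types. Mxd1, Mxd4, Mxi1 and Mnt bind Max in place of Myc, occupy the same sequences and repress through the Sin3 corepressor. Mga also binds Max, carries a T-box DNA-binding domain as well, and belongs to a Polycomb repressive complex. Mlx is the partner of an extension of the network, in which Mlxip (MondoA) responds to glucose metabolites. Npm1, the gene targeted in this study, is itself a known target of Myc and encodes a nucleolar protein that binds Myc.

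Because the proteins of this family recognise CACGTG, the promoters of the members themselves were searched for it. RefSeq promoter windows of GRCm38.p6, running from 250 bases before to 50 bases after each annotated start, were matched for 9 of the members, Myc being the other, in 11 windows. CACGTG, which reads the same on both strands, was found in the windows of 4 members, Max, Mlx, Mnt and Mxd4, and in 7.15% of all 32851 windows. The sequence TTCNNNGAA, the general form bound by STAT factors such as the STAT3 of this study and also the same on both strands, was found in the windows of 0 members and in 8.3% of all windows. The stretches of 66 bases around the 4 matches are shown because they place the network's own recognition sequence at its members, with CACGTG in capitals and each stretch read 5′ to 3′ on the strand of its gene.
Max, minus strand, chr12:76962216-76962281: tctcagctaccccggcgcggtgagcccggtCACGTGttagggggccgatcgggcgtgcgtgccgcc
Mlx, plus strand, chr11:101087220-101087285: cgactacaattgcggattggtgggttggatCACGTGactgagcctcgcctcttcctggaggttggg
Mnt, plus strand, chr11:74830771-74830836: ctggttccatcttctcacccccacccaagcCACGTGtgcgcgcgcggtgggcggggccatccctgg
Mxd4, minus strand, chr5:34187894-34187959: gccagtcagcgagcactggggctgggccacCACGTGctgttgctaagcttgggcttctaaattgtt

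The match began 3 bases before the RefSeq start in Max, 40 in Mlx, 123 in Mnt and 219 in Mxd4. Measured from the GENCODE gene starts that the coordinates below use, it began 50 bases before the start in Max, 27 in Mlx, 119 in Mnt and 209 in Mxd4, so the order of Max and Mlx depends on the annotation. A match is a description of the sequence and not evidence that a factor was bound there. Among these 4 members, Mlx is the one whose levels separated the labelled groups below, as 12.6% of all genes tested did in the same direction. Mxd1, the other member that separated them, had 0 matches in its window.

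Total counts were between 36550775 and 38147320 per library, and 13884 genes passed the filter on low counts and were tested, the 10 members among them. Levels are given as CPM, the counts scaled by library size and TMM factors. Groups were compared in edgeR by a quasi-likelihood test, each p-value being adjusted by Benjamini-Hochberg over the 13884 genes, and an adjusted p is that of edgeR unless DESeq2 is named. Across all genes, 0 passed an adjusted p of 0.05, the smallest adjusted p being 0.328, while 2112 genes had an unadjusted p under 0.05. DESeq2 on the same counts called 36 genes, or 0.263% of those to which it gave an adjusted p. Npm1 was not lower in the knockdown libraries. Its level was 142, 380.2 and 381 CPM in wt replicates 1, 2 and 3 and 441, 499 and 343 CPM in knockdown replicates 1, 2 and 3 (log2 fold change 0.51, SE, or standard error, 0.36, edgeR adjusted p = 0.436). Without wt replicate 1, its lowest library, the log2 fold change was 0.16 (adjusted p = 0.684). Directions are therefore given between the libraries as labelled. Replicate 1 of wt stood apart on the first principal component, at -108.5 against -4.54 to 52.0 for the other libraries. For Npm1, the members and the list medians printed, values without it are given where they moved by over 1.5 times or turned in sign. Log2 fold changes of other named genes are given over all 6 libraries only, and some of them may rest on this library.

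Of the 10 members, 0 passed an adjusted p of 0.05 in edgeR, as for 0.0% of all genes tested, and 0 passed in DESeq2. The adjusted p of the members ran from 0.328 to 0.872 in edgeR, and the smallest from DESeq2 was 0.212. At an unadjusted p under 0.05 there were 2 members, Mxd1 and Mlx, against 15.2% of all genes tested, and 2 in DESeq2, Myc and Mxd1, against 17.1% of the genes with an adjusted p there. The 3 knockdown values lay below the 3 wt values for the same pair, Mxd1 and Mlx, while 12.6% of all genes tested separated in that direction. The knockdown values lay above the wt values for 0 members, and 13.3% of all genes did so. Estimates were above 0 for 3 members and below 0 for 7, the median log2 fold change being -0.11 for the members and 0.02 for all genes tested. The share of members at an unadjusted p under 0.05 was 20.0%, close to the background share. The count of these members was 1 without wt replicate 2, 0 without knockdown replicate 1 or knockdown replicate 2 and 3 without knockdown replicate 3. The share of all genes at this p is not given for those fits. The groups did not overlap for 5 members without wt replicate 2, against 43.9% of all genes, or without knockdown replicate 3, against 49.8%. Without wt replicate 1, estimates were above 0 for 6 members in place of 3, with a median of 0.05.

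**Figure D1:**
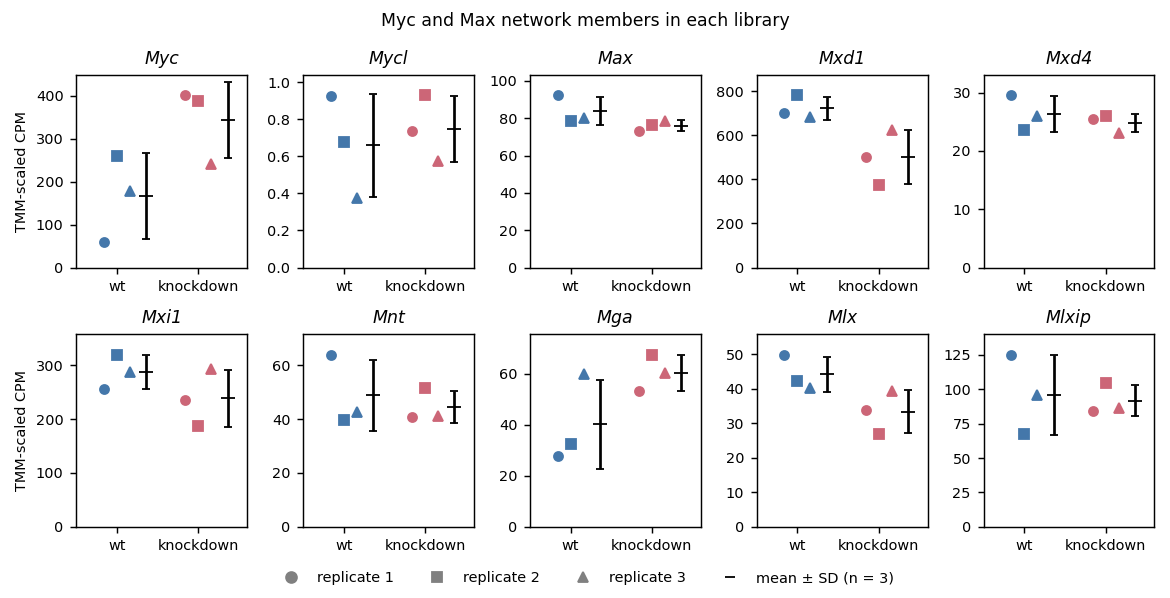
TMM-scaled CPM of each of the 10 members (vertical axes from 0) in the 3 wt and the 3 knockdown libraries, with marker shapes for the replicates and a bar for the mean ± SD (n = 3). Myc in wt replicate 1 sits at 60.5 CPM, far below the other libraries, whereas for Mxd1 and Mlx each knockdown library lies below each wt library.

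Among the activators, Myc (NCBI Gene 17869, chromosome 15, 61985391 to 61990374, plus strand, GRCm38) had the largest estimate of the 10 members. Its level was 60.5, 261 and 178 CPM in wt replicates 1, 2 and 3. In knockdown replicates 1, 2 and 3 it was 401, 387 and 241 CPM. Replicates 1 and 2 of knockdown were thus the highest of the 6 libraries, but knockdown replicate 3 lay below wt replicate 2, so the groups overlapped. The means were 166 ± 101 CPM in wt and 343 ± 88.6 CPM in knockdown (SD, n = 3 each), a ratio of 2.06. The log2 fold change was 1.05 with a SE of 0.47 (edgeR unadjusted p = 0.0609, adjusted p = 0.331), which did not pass the threshold. DESeq2 gave an unadjusted p of 0.0162 and an adjusted p of 0.212. Of all genes tested, 91.3% had a smaller log2 fold change in size.

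The distance of Myc between groups rested in part on wt replicate 1. On the log2 CPM scale this library differed by -1.83 from the mean of the other wt libraries. Without it the log2 fold change was 0.64 (SE 0.25, edgeR adjusted p = 0.406), and the groups still overlapped. Over the 6 libraries Myc varied 6.63-fold from the lowest to the highest, the widest range of any member.

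Mycl, the L-Myc gene (NCBI Gene 16918, chromosome 4, 122995652 to 123002485, plus strand), was nearly absent. It had 33, 24 and 14 counts in the wt libraries and 29, 39 and 21 counts in the knockdown libraries, or at most 0.931 CPM. The groups overlapped, with the lowest value in wt replicate 3, and the log2 fold change was 0.18 (SE 0.47, adjusted p = 0.832), or 0.51 without wt replicate 1, 0.33 without knockdown replicate 3, -0.12 without wt replicate 3 and -0.01 without knockdown replicate 2. Mycn, the related N-Myc gene that is no member of the list, had at most 3 counts in any library and did not enter the test. Myc was therefore the Myc-type activator with an appreciable level in these libraries.

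Max (NCBI Gene 17187, chromosome 12, 76937269 to 76962201, minus strand) had the narrowest range of the members. Its level was 92.4, 78.5 and 80.2 CPM in the wt libraries and 73.1, 76.4 and 78.8 CPM in the knockdown libraries. The values differed 1.26-fold from lowest to highest, wt replicate 1 being the highest, and knockdown replicate 3 lay above the lowest wt value. The log2 fold change was -0.14 (SE 0.11, adjusted p = 0.49) and -0.06 without wt replicate 1. Its sign turned to 0.01 with limma on log2(FPKM + 1), where the median of all genes also moved up, by 0.0699.

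Mxd1 (NCBI Gene 17119, chromosome 6, 86647042 to 86669161, minus strand), a repressor of the Myc sites that is known to be induced as myeloid cells differentiate, was the member with the smallest p-value. Its level was 702, 782 and 685 CPM in wt replicates 1, 2 and 3 and 503, 377 and 623 CPM in knockdown replicates 1, 2 and 3. Each knockdown library lay below each wt library, with the narrowest gap between knockdown replicate 3 and wt replicate 3. The means were 723 ± 52.0 CPM in wt and 501 ± 123 CPM in knockdown (SD, n = 3 each), a ratio of 0.693. The log2 fold change was -0.53 with a SE of 0.19 (unadjusted p = 0.0269, edgeR adjusted p = 0.328), which did not pass the threshold. In contrast to Myc, the estimate hardly moved without wt replicate 1, at -0.55, and Mxd1 in that library lay within the range of the other wt libraries. The estimate depended more on the knockdown libraries, at -0.37 without knockdown replicate 2 and -0.72 without knockdown replicate 3.

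Among the other repressors that act through Sin3, Mxi1 (NCBI Gene 17859, chromosome 19, 53310518 to 53375810, plus strand) had 256, 320 and 287 CPM in the wt libraries and 235, 187 and 293 CPM in the knockdown libraries. The lowest values were those of knockdown replicates 1 and 2, but knockdown replicate 3 lay above wt replicate 3, and the log2 fold change was -0.27 (SE 0.18, adjusted p = 0.421), or -0.13 without knockdown replicate 2 and -0.45 without knockdown replicate 3. Replicate 2 of knockdown was the lowest library and wt replicate 2 the highest for both Mxi1 and Mxd1.

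Mnt (NCBI Gene 17428, chromosome 11, 74830920 to 74845725, plus strand), the repressor that is expressed most widely and is thought to buffer Myc, had 63.9, 39.7 and 42.6 CPM in the wt libraries and 40.7, 51.5 and 41.3 CPM in the knockdown libraries. Its highest value was in wt replicate 1, the groups overlapped, and the log2 fold change of -0.13 (SE 0.21, adjusted p = 0.719) turned to 0.11 without that library. Mxd4 (NCBI Gene 17122, chromosome 5, 34173883 to 34187720, minus strand) had 29.6, 23.5 and 26.0 CPM in the wt libraries and 25.4, 25.9 and 23.0 CPM in the knockdown libraries. The values of both groups covered nearly the same range, with a log2 fold change of -0.09 (SE 0.14, adjusted p = 0.732) that was 0.000142 without wt replicate 1. Mxd3, the remaining gene of this type, had between 0.506 and 4.76 CPM, with the lowest value in wt replicate 1.

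Mga (NCBI Gene 29808, chromosome 2, 119897228 to 119969581, plus strand) had 27.8, 32.6 and 59.9 CPM in the wt libraries and 53.3, 67.4 and 60.0 CPM in the knockdown libraries. Replicates 1 and 2 of wt were low and wt replicate 3 reached the level of the knockdown libraries, so the groups overlapped. The log2 fold change was 0.59 (SE 0.28, adjusted p = 0.336), second in size to that of Myc. Without wt replicate 1 it was 0.38, and without wt replicate 3 it was 0.98.

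On the Mlx side of the network, Mlx itself (NCBI Gene 21428, chromosome 11, 101087277 to 101092207, plus strand), whose promoter stretch with CACGTG is shown above, had 49.9, 42.4 and 40.2 CPM in the wt libraries. In the knockdown libraries it had 33.8, 26.9 and 39.3 CPM, each below the lowest wt value, although knockdown replicate 3 lay close to it. The means were 44.2 ± 5.07 CPM and 33.3 ± 6.19 CPM (SD, n = 3 each), a ratio of 0.755, and the log2 fold change was -0.41 with a SE of 0.17 (unadjusted p = 0.0478, edgeR adjusted p = 0.328). This estimate was -0.28 without knockdown replicate 2 and -0.55 without knockdown replicate 3. The exons of Mlx share 385 bases with those of Psmc3ip on the opposite strand, and since the use of strand in the counting is not given, reads of the overlap cannot be told apart. Psmc3ip had between 0.731 and 3.05 CPM.

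Mlxip (NCBI Gene 208104, chromosome 5, 123394798 to 123457932, plus strand), the MondoA partner of Mlx, had 125, 67.2 and 95.6 CPM in the wt libraries and 84.2, 104 and 86.6 CPM in the knockdown libraries. The wt libraries held both the highest and the lowest value, the log2 fold change was -0.07 (SE 0.22, adjusted p = 0.872), and without wt replicate 1 it was 0.17. Mlxipl, which encodes the related factor ChREBP and is no member of the list, stood at 0.562 to 2.89 CPM, with overlapping groups and a log2 fold change of 1.09 (SE 0.53, adjusted p = 0.336). The exons of Mxd4, Mxi1 and Mlxip also overlap an annotated gene on the opposite strand, whereas those of Myc, Mycl, Max, Mxd1, Mnt and Mga overlap none.

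**Figure D2:**
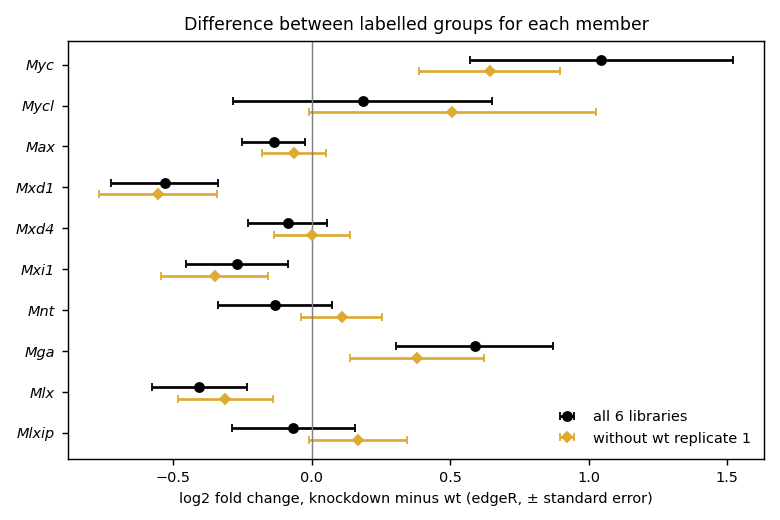
Log2 fold change from edgeR of each member, knockdown minus wt, with bars for the standard error, over all 6 libraries (circles) and without wt replicate 1 (diamonds). The estimate of Myc moves from 1.05 to 0.64 without this library, that of Mxd1 stays at -0.53 and -0.55, and those of Mnt, Mxd4 and Mlxip change sign or reach 0.

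The order of the levels was then taken per length, from the deposited FPKM values, which scale counts by gene length and library size. By the mean over 6 libraries, Mxd1 was first at 131 FPKM, followed by Myc at 109, Mxi1 at 56.1, Max at 30.2, Mlx at 15.0, Mlxip at 11.7, Mxd4 at 6.58, Mnt at 5.89, Mga at 1.92 and Mycl at 0.182. Mxd1 was first in 4 libraries and Myc in the other 2, knockdown replicates 1 and 2, so these neighbours did not keep their order. Myc ranked 4 in wt replicate 1, below Mxi1 and Max. The neighbours Mxd4 and Mnt changed places in wt replicate 1, as did Mlx and Mlxip in knockdown replicate 2, whereas Mga and Mycl were 9 and 10 in each library.

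The order depends on the gene lengths used. The deposited FPKM values imply a length of 26585 bases for Mga and 3894 bases for Mxd4, while the exons of these genes in GENCODE release M21 cover 15340 and 8483 bases. With the GENCODE lengths Myc had the highest mean, at 96.5 on the same scale, and Mxd1 the next at 85.3, and the mean of Mga lay above that of Mxd4. In the 3 wt libraries Mxd1 remained above Myc, and in the 3 knockdown libraries Myc was above Mxd1. Lengths cancel in the comparison of libraries, so the fold change of a single gene does not depend on them.

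Myc and its repressors compete for Max, and the balance of their transcripts was therefore set out per library. The ratio of Myc FPKM to the summed FPKM of Mxd1, Mxd4, Mxi1 and Mnt was 0.113, 0.436 and 0.334 in wt replicates 1, 2 and 3. In knockdown replicates 1, 2 and 3 it was 0.977, 1.2 and 0.481. Each knockdown library lay above each wt library, with knockdown replicate 3 close to wt replicate 2. On the log2 scale the difference between the group means was 1.70, or 1.11 without wt replicate 1 and 1.68 with the GENCODE lengths, beside a pooled SD within groups of 0.88. The ratio combines members chosen with their results known, and no test is given for it.

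Myc made up 10.1%, 30.3% and 24.8% of the summed FPKM of the 7 genes whose proteins bind Max in wt replicates 1, 2 and 3. In knockdown replicates 1, 2 and 3 this share was 49.1%, 54.0% and 32.2%. The share of Mxd1 was 47.1% to 61.0% in wt and 27.3% to 43.2% in knockdown, and the groups did not overlap. Both shares are parts of the same sum, so a higher level of Myc lowers that of Mxd1. They restate the levels given above, and no test is given for them. The sum of the 7 genes was 7.13 to 12.1 times the FPKM of Max in wt and 10.4 to 12.3 times in knockdown, so that transcripts of Max-binding partners exceeded those of Max in each library. Levels of mRNA do not give levels of protein, and Myc protein is short-lived.

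**Figure D3:**
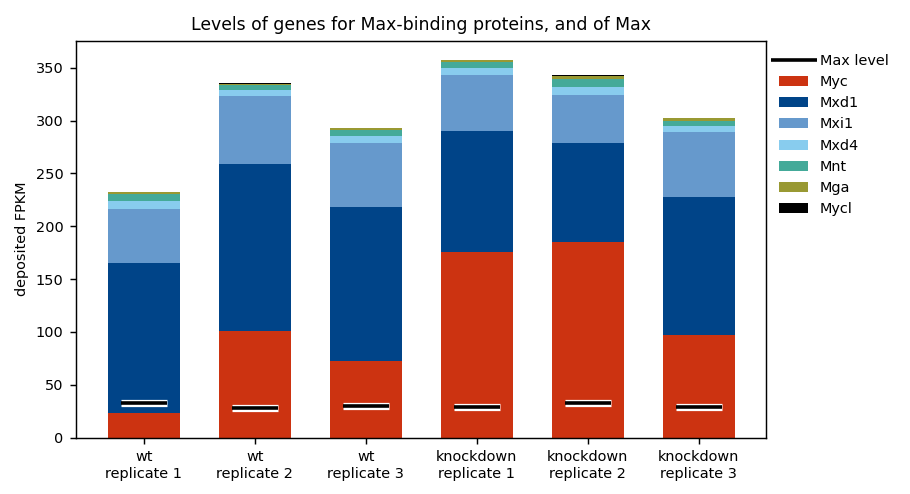
Deposited FPKM of the 7 genes whose proteins bind Max, stacked for each library (horizontal axis), with a short black line for the FPKM of Max. The Myc segment is 23.5 FPKM in wt replicate 1 and 176 and 185 FPKM in knockdown replicates 1 and 2, while the Max line stays between 27.7 and 33.1 FPKM.

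Genes known to be induced by Myc were taken from a list of 55, covering ribosome production, nucleotide and polyamine synthesis, chaperones and replication, and all 55, Npm1 among them, were tested. In edgeR 0 passed the threshold in either direction. At an unadjusted p under 0.05, 23 were higher in knockdown, or 41.8%, against 6.9% of all genes tested, and 0 were lower, against 8.31% of all genes. Estimates were above 0 for 45 of 55, against 52.1% of all genes, and the median log2 fold change was 0.39, against 0.02 for all genes tested. Without wt replicate 1, 14 genes of the list were higher at an unadjusted p under 0.05, or 25.5%, against 6.81% of all genes, 50 of 55 were above 0 and the median was 0.31. The groups did not overlap for 14 genes in the higher direction, or 25.5%, against 13.3% of all genes. In the lower direction they did not overlap for 1, against 12.6% of all genes, which was Tcof1, a factor of ribosomal RNA synthesis named after its value was seen. Without wt replicate 1 these counts were 18 and 2, against 16.6% and 15.2% of all genes.

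The smallest p-values of this list were those of Nop56 and Wdr43. Nop56, a core protein of the box C/D particles that modify ribosomal RNA, had 64.8, 79.8 and 72.2 CPM in the wt libraries and 131, 160 and 99.4 CPM in the knockdown libraries, which did not overlap (log2 fold change 0.85, SE 0.19, adjusted p = 0.328 in edgeR and 0.063 in DESeq2). Wdr43, a factor of the small subunit processome, had 40.8, 54.7 and 58.3 CPM in wt and 82.2, 94.0 and 69.9 CPM in knockdown (log2 fold change 0.68, SE 0.18, adjusted p = 0.328 in edgeR). Odc1, the first enzyme of polyamine synthesis and a classical Myc target named here after its value was seen, had a log2 fold change of 0.68 with the same adjusted p of 0.328. Ldha, a glycolytic target also chosen after its value was seen, stood at -0.15 (edgeR adjusted p = 0.571).

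Of the 8 genes known to be repressed by Myc, 6 were tested, 0 passed and 3 had estimates above 0, and their median log2 fold change was 0.06, which was 0.02 without wt replicate 1, 0.12 without wt replicate 2 or knockdown replicate 2 and -0.01 without knockdown replicate 3. The smallest p-values were those of Klf6, a zinc finger factor, and Gadd45a, a stress-induced growth arrest gene. Klf6 had 1027, 1268 and 1321 CPM in wt and 1658, 1620 and 1896 CPM in knockdown (log2 fold change 0.52, edgeR adjusted p = 0.328). For Gadd45a the log2 fold change was 0.31 (adjusted p = 0.328), so that both had estimates in the direction of the induced genes. Cdkn1a, the p21 inhibitor of the cell cycle, was at -0.35 (adjusted p = 0.416) and was named after its value was seen.

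Of the 8 listed targets of Mlx and its Mondo partners, 7 were tested and 0 passed, with 4 estimates above 0 and a median of 0.19, which was 0.12 without wt replicate 2, 0.08 without wt replicate 3 and 0.07 without knockdown replicate 3. Arrdc4, an arrestin domain gene that MondoA and Mlx induce directly, had 116, 121 and 95.8 CPM in wt replicates 1, 2 and 3. Its level in the knockdown libraries was 73.5, 66.1 and 94.0 CPM, each below the wt range (log2 fold change -0.51, SE 0.17, adjusted p = 0.328). Txnip, the best-known target of the pair and a regulator of glucose uptake named after its value was seen, was at -0.20 on this scale (adjusted p = 0.465), and Acaca, of fatty acid synthesis, had 0.31 (adjusted p = 0.328).

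The partners of the members gave no call either. Of 15 Myc coactivators 6 had estimates above 0, with a median log2 fold change of -0.08. That median was -0.02 without wt replicate 1, -0.04 without wt replicate 2 and -0.14 without wt replicate 3. It turned to 0.07 with limma on log2(FPKM + 1), a setting that also moved the median of all genes up by 0.0699. The smallest p-values were those of Ccnt1 (-0.26, adjusted p = 0.352) and Paf1 (-0.25, adjusted p = 0.383), both factors of transcript elongation. Of 16 genes that act on the stability of Myc, 11 were above 0, with a median of 0.20 that was 0.10 without wt replicate 1, 0.13 without wt replicate 3 and 0.06 without wt replicate 2 or knockdown replicate 2. Cip2a, which protects Myc from dephosphorylation, had 1.91, 8.99 and 10.2 CPM in wt and 17.4, 21.2 and 12.7 CPM in knockdown (log2 fold change 1.28, SE 0.55, adjusted p = 0.328), and Gsk3b, a kinase that marks Myc for degradation, had -0.27 (adjusted p = 0.337).

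Of 15 genes of the Sin3 corepressor, 7 were above 0 with a median of -0.04, which was -0.01 without knockdown replicate 1. This median turned to 0.01 without wt replicate 1 and to 0.10 with limma on log2(FPKM + 1). With that limma setting the median of all genes also moved up, by 0.0699. The histone-binding subunit Rbbp7 had a log2 fold change of 0.70 and Arid4b had 0.55, both with an adjusted p of 0.328. Of 13 partners in the Polycomb complex that holds Mga, 10 were above 0 with a median of 0.25, which was 0.16 without wt replicate 1 and 0.15 without knockdown replicate 2. The smallest p-values were those of Pcgf6, at a log2 fold change of 0.83, and the ubiquitin ligase Rnf2, at 0.50, again with an adjusted p of 0.328. Hdac1 and Hdac2 stand in both of these lists, and Wdr5 in that of Mga and that of the coactivators.

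**Figure D4:**
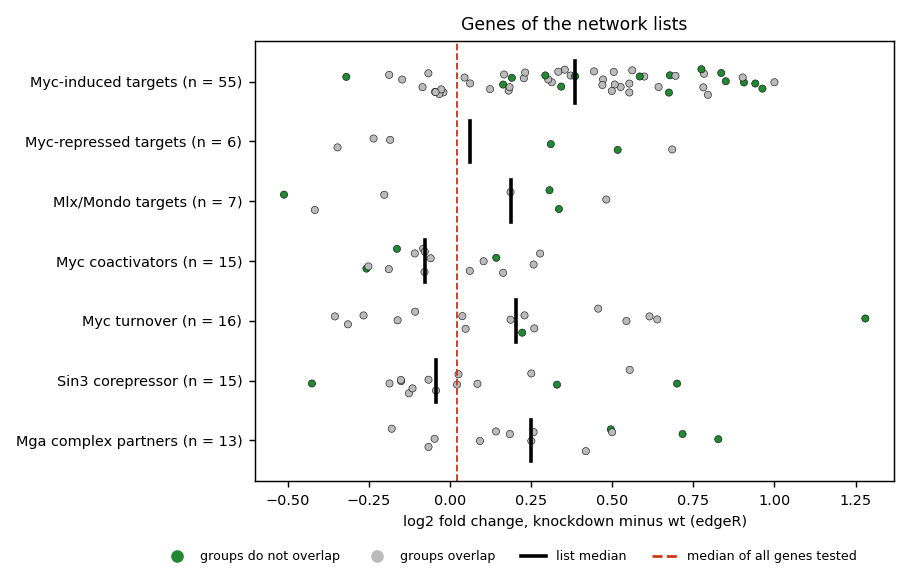
Log2 fold change from edgeR (horizontal axis, knockdown minus wt) of the tested genes of 7 lists around the network, with a black bar for the median of each list and a dashed line for the median of all genes tested, 0.02. Genes induced by Myc have a median of 0.39, while the medians of coactivators and of the Sin3 corepressor are -0.08 and -0.04. Both turn above 0 with limma on log2(FPKM + 1), a setting that also moves the median of all genes up by 0.0699. Green points are genes whose groups do not overlap, and 0 of the genes passed an adjusted p of 0.05.

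Levels of transcripts of other cell types and of the cell cycle also varied between libraries, and their part in the values of Myc, Mxd1 and the target genes was not tested. Of 21 cell cycle genes, 21 had estimates above 0, and the groups did not overlap for 12, or 57.1%, against 13.3% of all genes in the higher direction. Their median log2 fold change was 0.81, and their summed level was 342 to 801 CPM in wt and 819 to 1171 CPM in knockdown. In wt replicate 1, where Myc was lowest, this sum was also lowest, and without this library the median was 0.47 with 21 genes above 0. Of 9 T cell markers 9 were above 0, with sums of 26.3 to 132 CPM in wt and 103 to 304 CPM in knockdown, and of 7 NK cell markers 7 were above 0 (45.7 to 80.4 and 69.5 to 149.7 CPM). In both lists only knockdown replicate 2 lay above the wt range. Replicates 1 and 3 of knockdown were at 118.7 and 103.3 CPM for T cells and at 69.7 and 69.5 CPM for NK cells. The carcinoma list summed to 36.8 to 138 CPM in wt and 129.7 to 192 CPM in knockdown, with 3 of its 9 listed genes in the table, Krt19, Cldn4 and Sftpc, at or under 3 counts in each library. Krt8 gave most of this sum in each library except wt replicate 1. Of the 5 tested genes 3 had estimates above 0, while Cdh1 and Krt7 had log2 fold changes of -0.41 and -1.03.

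The neutrophil list had estimates of the same sign as Mxd1. All 10 tested markers had estimates below 0, and the groups did not overlap for 6, or 60.0%, against 12.6% of all genes in the lower direction. The sums were 2076 to 2304 CPM in wt and 904 to 1760 CPM in knockdown, although Ly6g, the defining surface marker, was at most 2.11 CPM. The macrophage list had the same sign, with 15 of 15 estimates below 0, a median of -0.54 and sums of 22900 to 28270 CPM in wt and 13770 to 23240 CPM in knockdown. The groups did not overlap in the lower direction for 9 of its genes, or 60.0%, the same share as for the neutrophil list. The sorting markers Ptprc (CD45), Itgam (CD11b) and Adgre1 (F4/80) were present in each library and had log2 fold changes of -0.09, -0.49 and -0.49, with adjusted p of 0.795, 0.331 and 0.338.

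Like those of the T cell, NK cell, carcinoma and macrophage lists, the sums of the remaining cell type lists overlapped between groups. They were 4446 to 5798 CPM in wt and 3021 to 4669 CPM in knockdown for fibroblast genes, of which Fn1 gave the most. The sum does not describe the list, since 10 of 12 estimates were above 0, with a median log2 fold change of 1.11, or 9 of 12 and 0.68 without wt replicate 1. The collagen gene Col3a1, named after its value was seen, was at 19.0 CPM in wt replicate 1 and at 245 to 604 CPM in the other libraries. Dcn, Lum, Pdgfra, Pdgfrb, Fap and Thy1 were also lowest in wt replicate 1. In contrast, Col1a1, Col1a2 and Postn were lowest in wt replicate 3, and Fn1 and Acta2 in knockdown replicate 2. For endothelial genes the sums were 34.5 to 43.2 and 32.9 to 36.9 CPM. For B cell genes they were 8.74 to 49.7 and 17.4 to 71.3 CPM, and for dendritic cell genes 264 to 465 and 279 to 420 CPM. In contrast, the sums of stress and immediate early genes did not overlap, at 10480 to 14040 CPM in wt and 8009 to 9935 CPM in knockdown, with 5 of 11 estimates above 0.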

How the data were processed

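Macrophage RNA of 6 libraries was analysed, 3 labelled wt and 3 knockdown. The methods of the study name a low-input SMARTer library and paired-end NovaSeq sequencing, whereas the labels name TRIzol and a small-RNA library, and this was not reconciled. The deposited table held raw counts per gene and FPKM values that the authors derived from them, on mm10 per the submitters' processing notes. The aligner, counter and annotation are not given in the sources used here.

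Counts were tested with edgeR 4.0.16 (filterByExpr, TMM, quasi-likelihood) in R 4.3.3, with Benjamini-Hochberg adjustment over 13884 genes. A prior count of 2 was used for the log2 CPM values only. DESeq2 1.42.0, limma 3.58.1 on log2(FPKM + 1) and log2(FPKM + 0.1), RLE scaling, other filters, a replicate block and leaving out each library were alternatives. Library totals of 36550775 to 38147320 put 3 counts at 0.0716 to 0.0846 CPM, for counting error only. No pair of libraries of 1 group agreed within sampling noise, and pairs between groups were not compared. The scripts were tested on simulated data.

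The members and the gene lists were chosen with earlier results of these data known. Genes named are the members, Npm1, Mycn, Mxd3, Mlxipl, the sorting markers and, from each network list, the 2 genes of smallest p-value, and other names were added after their values were seen. Promoters are RefSeq sequences of GRCm38.p6, and gene coordinates are from GENCODE M21.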

Additional observations from a re-analysis of the deposited data

How the results depend on the processing

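Of 253 log2 values under an alternative, 232 kept their sign and 21 did not, and many changed in size. Npm1 was 0.163 without wt replicate 1. In edgeR 0 genes were called under each library left out and under the replicate block, while DESeq2 called 36 and, chosen after seeing the data, 78 without wt replicate 1, with 0 members in either. Myc, Mxd1, Mxi1, Mga and Mlx kept their sign under each alternative. Max, Mxd4, Mnt, Mlxip and Mycl did not. With limma on log2(FPKM + 1) and log2(FPKM + 0.1) the log2 fold change was 0.0145 and 0.0149 for Max, 0.0581 and 0.0656 for Mxd4, 0.0344 and 0.0408 for Mnt, and 0.11 and 0.121 for Mlxip, where the median of all genes shifted by 0.0699 and 0.139. DESeq2 without wt replicate 1 gave 0.0839 for Mnt and 0.146 for Mlxip. With 1 library left out, values ran from -0.117 to 0.508 for Mycl, -0.167 to 0.000142 for Mxd4, -0.264 to 0.108 for Mnt and -0.273 to 0.168 for Mlxip. Members at an unadjusted p under 0.05 numbered 4 with no filter, 1 with at least 10 counts in every library and 0 to 3 with 1 library left out. The share of all genes at this p is not given for these settings or the replicate block, so these counts are not set against a background. With 1 library left out, 2 to 5 members did not overlap, against 29.6% to 49.8% of all genes. List medians with limma at the larger and smaller pseudocount were 0.204 and 0.21 for genes repressed by Myc, 0.0748 and 0.0797 for coactivators, 0.303 and 0.361 for turnover, and 0.0977 and 0.109 for Sin3, and 0.343 at the smaller for Mondo targets. The turnover median ran from 0.063 to 0.251 with 1 library left out, that of genes repressed by Myc from -0.0118 to 0.124 and that of Sin3 from -0.0502 to 0.00922. The cause of these changes was not tested.

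Replicate numbers gave no pairing, since same-numbered deviations correlated at -0.241, 0.0605 and -0.337. With the replicate block the log2 fold change of Myc was 1.21, members at an unadjusted p under 0.05 numbered 3, and no call changed. With 3 libraries a group, the precision is set mainly by the spread between libraries. For Mycl, at 14 to 39 counts a library, counting error also limits it.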
